A study of Mus musculus with 8 samples.

Results

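The miR-193 and miR-365 microRNAs come from 4 mouse precursors that lie as pairs on separate chromosomes, mmu-mir-193b with mmu-mir-365-1 and mmu-mir-193a with mmu-mir-365-2 (mmu for mouse, left out below). They were chosen by precursor name from the deposited table and are 4 of its 1181 precursors. Small RNA had been sequenced from myoblasts, the dividing cells that later fuse to make muscle fibres, of C57BL/6J mice, with 4 libraries from old and 4 from young animals; the labels give no ages in months, no treatment and no genotype other than the strain. The labels number a mouse for each library, and these numbers name the libraries here. All 4 precursors passed the filter on low values, which asked for 10 or more on the linear scale in 4 or more libraries and kept 359 precursors in all. The group was selected on names, but with the measured old and young values of these libraries known, among them that mir-193b had the sixth smallest p for old against young. Differences between old and young are therefore given as a description. Their adjusted p, over all kept precursors, only says whether a threshold was passed. Tests of their own were run only for relations among the precursors.

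A microRNA is cut from a hairpin precursor and guides a silencing complex to messenger RNAs that pair with its seed, the bases 2 to 8 from its 5′ end. The mir-193b and mir-365-1 cluster is known from cultured brown fat precursors, in which it was reported to favour brown fat formation and to hold back muscle genes, partly through the corepressor gene Runx1t1. Knockout mice that lack the cluster were later reported to form brown fat. Brown fat and skeletal muscle share a precursor lineage, so the cluster is often discussed as part of that fate choice. miR-193a-3p is best known for restraining cell growth, and miR-365 for roles in cartilage and in cell proliferation.

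The mature sequences are shown because they decide which of these precursors can be told apart by reads. They are from RefSeq for GRCm38.p6, the same build as mm10, are written 5′ to 3′ and have the seed in capitals; all 4 precursors were matched. The 3p arms fall into 2 seed groups, ACUGGCC for both miR-193 forms and AAUGCCC for miR-365, and no other mature mouse microRNA of the table has either seed.
miR-193b-3p: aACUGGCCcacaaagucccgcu
miR-193a-3p: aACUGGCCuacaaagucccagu
miR-365-3p: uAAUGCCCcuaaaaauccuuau
miR-193b-5p: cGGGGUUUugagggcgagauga
miR-193a-5p: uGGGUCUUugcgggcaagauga
miR-365-1-5p: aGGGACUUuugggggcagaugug
miR-365-2-5p: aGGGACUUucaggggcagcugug

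From miR-193a-3p to miR-193b-3p, counting from 1 at the 5′ end, there are 3 substitutions, U9C, A20G and G21C, and 19 of 22 bases are the same. None of the 3 lies in the seed. The 5p arms of miR-193a and miR-193b differ at 5 positions (U1C, U5G, C6U, C11A and A16G), of which U5G and C6U lie in the seed, and so have different seeds, GGGUCUU and GGGGUUU. The 5p arms of miR-365-1 and miR-365-2 differ at 3 positions outside the seed (U10C, G11A and A19C) and share the seed GGGACUU. miR-365-3p is the same sequence from both precursors, so its reads alone cannot be placed on chromosome 16 or chromosome 11.

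The hairpins of mir-365-1 and mir-365-2 are shown to mark how far the identical stretch reaches. The capitals are the longest run they share, 27 bases, which holds the whole of miR-365-3p.
mir-365-1: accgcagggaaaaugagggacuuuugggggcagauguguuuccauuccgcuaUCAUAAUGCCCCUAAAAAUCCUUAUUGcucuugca
mir-365-2: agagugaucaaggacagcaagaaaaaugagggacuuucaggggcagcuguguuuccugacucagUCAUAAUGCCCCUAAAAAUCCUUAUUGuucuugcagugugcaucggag

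The hairpins of mir-193b and mir-193a share no run over 10 bases, so a full-length read of either miR-193 form has 1 matching precursor among the 4. The deposited table gives 1 value per precursor and does not separate the arms, and how the authors placed reads that match several precursors is not given in the sources used here.

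On chromosome 16, mir-193b (chr16:13449523-13449601, plus strand, mm10) and mir-365-1 (chr16:13453840-13453926, plus strand) are separated by 4238 bases. Both lie in an intron of Gm15738, an antisense RNA gene on the minus strand, and the nearest protein-coding gene on their own strand is Mrtfb, a coactivator of serum response factor, which ends 31993 bases before mir-193b. On chromosome 11, mir-193a (chr11:79711969-79712034, plus strand) and mir-365-2 (chr11:79726400-79726511, plus strand) are separated by 14365 bases. They overlap no gene of the GENCODE annotation other than their own, and Rab11fip4, a Rab11 effector gene, ends 13945 bases before mir-193a.

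The libraries were deep for these precursors. If the deposited values are RPKM (reads scaled to precursor length and library size), as the steps between their lowest values behave, the libraries held 25.11 to 39.41 M reads, and each of the 4 precursors had at least 216 reads in every library and at most 3332. Every young library was larger by this estimate than every old one, so library size and age group cannot be told apart. The libraries also differed in composition: mir-486 and mir-3107, which are listed from the same locus, held 32.4% of the summed linear values in young 4 and 48.4% to 72.9% in the other 7 libraries. In parallel the median of the 359 kept precursors, relative to each precursor's mean, stood at 0.58 (log2) in young 4 and 0.35 in old 4, against -0.33 to 0.09 in the other 6. Values after removal of these medians (median-ratio rescaling) are given below for the groups and for each relation. The myoblast label was checked on 6 muscle-lineage precursors, of which 4 were kept; their summed level was 16.18 to 16.64 (log2) in old and 15.16 to 17.23 in young libraries. The lowest sum was that of young 4, which also had the lowest mir-206, at 14.78, and the lowest mir-133a-1, at 11.91. The fibre-enriched mir-1a-1 and mir-1a-2 were low, at 1.38 to 3.22 and 1.77 to 2.47 in 7 libraries, and were listed at 0 in young 4 alone. Of 5 blood precursors, mir-144, mir-223 and mir-142 were listed at 0 in all 8 libraries, mir-451a was above 0 only in young 1, at 0.89, and mir-150, a lymphocyte microRNA, stood at 1.04 to 4.47. Endothelial mir-126a stood at 2.96 to 5.11, with young 4 the highest. Of 5 epithelial precursors 0 were kept, and their summed level was 0.71 to 2.17 in old and 0 to 3.42 in young libraries. Young 4 was again the highest, with young 3 at 3.26. Liver mir-122, not kept either, stood at 0 to 0.12 in old and 0 to 2.53 in young libraries, highest in young 4. The 6 fibroblast and smooth muscle precursors were all kept, with a summed level of 15.39 to 15.87 in old and 14.62 to 15.68 in young libraries, and so were present in every library; their part in the values below was not tested. In such bulk libraries a change in the share of a cell type and a change in RNA per cell cannot be told apart.

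mir-193b, the first hairpin of the chromosome 16 pair, was the precursor whose mean differed most between old and young myoblasts among the 4. Its log2 abundance as deposited was, in the order of their numbers, 9.14, 8.78, 8.45 and 8.91 for the old mice. For the young mice it was 7.91, 6.41, 8.03 and 8.75. The old libraries lay close together and young 2 lay far below all others, while young 4 fell between the old libraries, so that the groups overlapped. The old mean was 8.82 ± 0.29 and the young mean 7.78 ± 0.98 (SD, 4 libraries in each group). Old minus young was 1.04 ± 0.50 (log2, SE from limma; 95% interval -0.08 to 2.17), or 2.06 times as much in old by geometric means. Among all 1181 precursors it ranked 125th to 164th in old libraries and 158th to 218th in young ones. Young 2 held 216 recovered reads of mir-193b, and the other libraries 570 to 1340. Without young 2 the difference was 0.59, and without young 4 it was 1.37.

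mir-365-1, the second hairpin of that pair, did not take the same course. It measured 8.30, 8.53, 8.03 and 8.98 across the old mice, against 8.47, 8.78, 8.06 and 9.18 across the young mice. The 2 groups covered nearly the same range, with the libraries numbered 4 highest and those numbered 3 lowest in each. The old mean was 8.46 ± 0.40 and the young mean 8.62 ± 0.47 (SD, n = 4), and old minus young was -0.16 ± 0.38 (log2, SE; 95% interval -1.02 to 0.69). In young 2, where mir-193b was lowest, mir-365-1 stood at 8.78, above its mean.

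mir-365-2, the miR-365 hairpin of chromosome 11, followed mir-365-1 closely. It measured 8.54, 8.97, 8.45 and 9.07 across the old mice, against 8.72, 8.92, 8.49 and 9.56 across the young mice. Young 4 and old 4 were again the highest of their groups and old 3 and young 3 the lowest. The old mean was 8.76 ± 0.31 and the young mean 8.92 ± 0.46 (SD, n = 4), and old minus young was -0.17 ± 0.36 (log2, SE; 95% interval -0.97 to 0.64).

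mir-193a, the miR-193 hairpin of chromosome 11, had nearly equal means. It measured 7.87, 8.21, 7.97 and 8.39 across the old mice, against 7.80, 7.54, 7.86 and 9.28 across the young mice. Young 4 lay above all others and young 2 below them, while the remaining libraries stayed within 7.80 to 8.39. The old mean was 8.11 ± 0.23 and the young mean 8.12 ± 0.79 (SD, n = 4), and old minus young was -0.01 ± 0.44 (log2, SE; 95% interval -1.0 to 0.98). Without young 4, which also had the highest median of all precursors and the lowest muscle-lineage sum, the difference was 0.38; the part of either in this value was not tested.

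**Figure D1:**
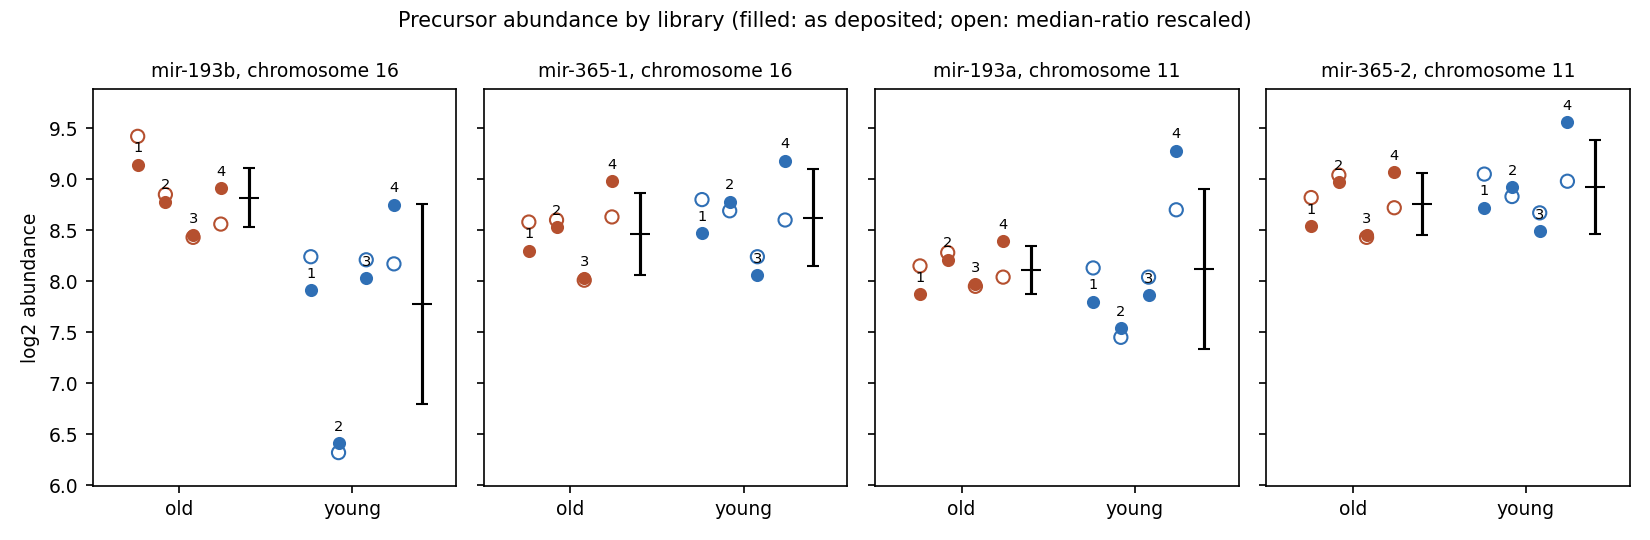
Log2 abundance (vertical axis) of the 4 precursors in 4 old (brown) and 4 young (blue) libraries, numbered as in the labels; filled points are the deposited values, open points those after median-ratio rescaling, and the bars are the mean and SD of the deposited values. The young 2 point of mir-193b at 6.41 lies below all others, and the young 4 point of mir-193a at 9.28 moves to 8.70 on rescaling.

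None of the 4 passed an adjusted p of 0.05 in limma (adjusted p = 0.995 for each, Benjamini-Hochberg over 359 precursors). The background of calls in this comparison was 0% (0 of 359), and 4 precursors had an unadjusted p under 0.05. The intervals above bound the differences. That of mir-193b reaches from just below 0 to 2.17 (log2), and those of the other 3 extend to about 1 on the log2 scale in at least 1 direction.

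**Figure D2:**
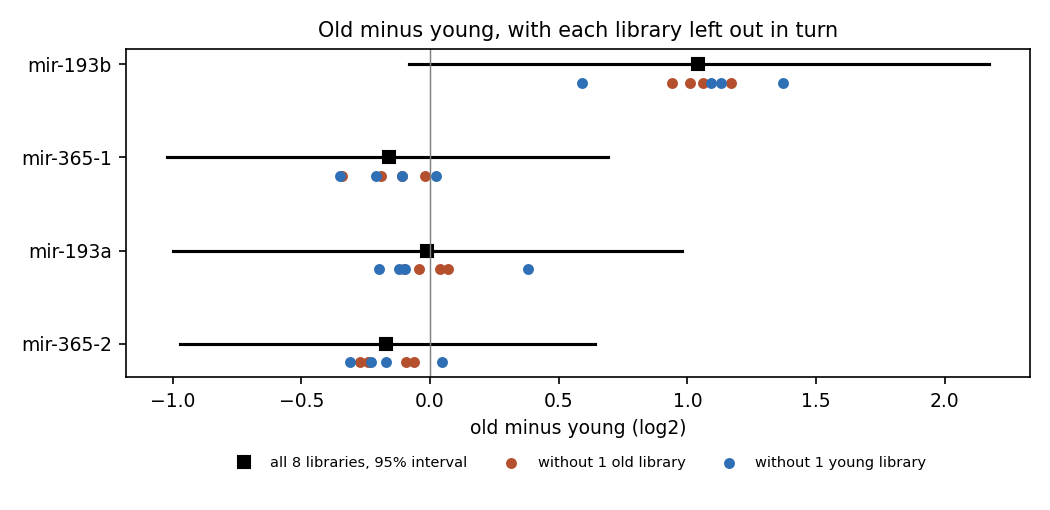
Difference of old minus young (log2, horizontal axis) for each precursor: squares with lines are the limma estimate and its 95% interval with all 8 libraries, and points are the estimates with 1 old (brown) or 1 young (blue) library left out. All points of mir-193b lie between 0.59 and 1.37, while those of the other 3 fall on both sides of 0.

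With the deposited values no precursor among the 4 separated the groups completely, where 0.836% of the 359 did in either direction. After median-ratio rescaling mir-193b was at 8.43 to 9.42 in old and 6.32 to 8.24 in young libraries, so that the groups no longer overlapped; the background of precursors with every old library above every young one was then 0.557% (2 of 359). The difference was 1.08 on that scale. This contrast is the one known when the precursors were chosen, so the separation supports nothing by itself.

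A ratio of precursors within a library does not change when all values of the library are scaled by the same factor, though quantile normalization can change it. The log2 difference of mir-193b and mir-193a, which share the 3p seed, was 1.27, 0.57, 0.48 and 0.52 across the old mice, against 0.11, -1.13, 0.17 and -0.53 across the young mice. Every old library lay above every young one, with means of 0.71 ± 0.38 and -0.34 ± 0.61 (SD, n = 4 each). The group difference of 1.06 is close to the 1.04 of mir-193b alone, the contrast known when the precursors were chosen. This separation therefore supports nothing by itself either. In reads, as recovered under the RPKM reading, mir-193b made up 74.3%, 64.0%, 62.5% and 63.2% of the reads under both miR-193 hairpins in old libraries, and 56.3%, 35.4%, 57.3% and 45.3% in young ones. The chromosome 16 form thus held the larger part of these reads in the 4 old libraries and in young 1 and young 3. Set against each of the other 358 kept precursors in turn, mir-193b gave such a separation for 13.1% (47 of 358), so it was not limited to mir-193a.

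The same ratio against the miR-365 hairpins also leaned to the old libraries. mir-193b minus mir-365-1, its neighbour on chromosome 16, was 0.84, 0.25, 0.42 and -0.07 across the old mice, against -0.56, -2.37, -0.03 and -0.43 across the young mice. The groups overlapped only between old 4 and young 3, and the spread among young libraries, from -2.37 to -0.03, was larger than that among old ones. mir-193b minus mir-365-2 was -0.19 to 0.60 in old and -2.51 to -0.46 in young libraries, without overlap. That separation is among the 47 of 358 counted above for mir-193b. Each of these ratios contains the mir-193b difference that was known at the choice. The differences between the other precursors, mir-365-1 minus mir-193a and mir-193a minus mir-365-2, overlapped between the groups.

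**Figure D3:**
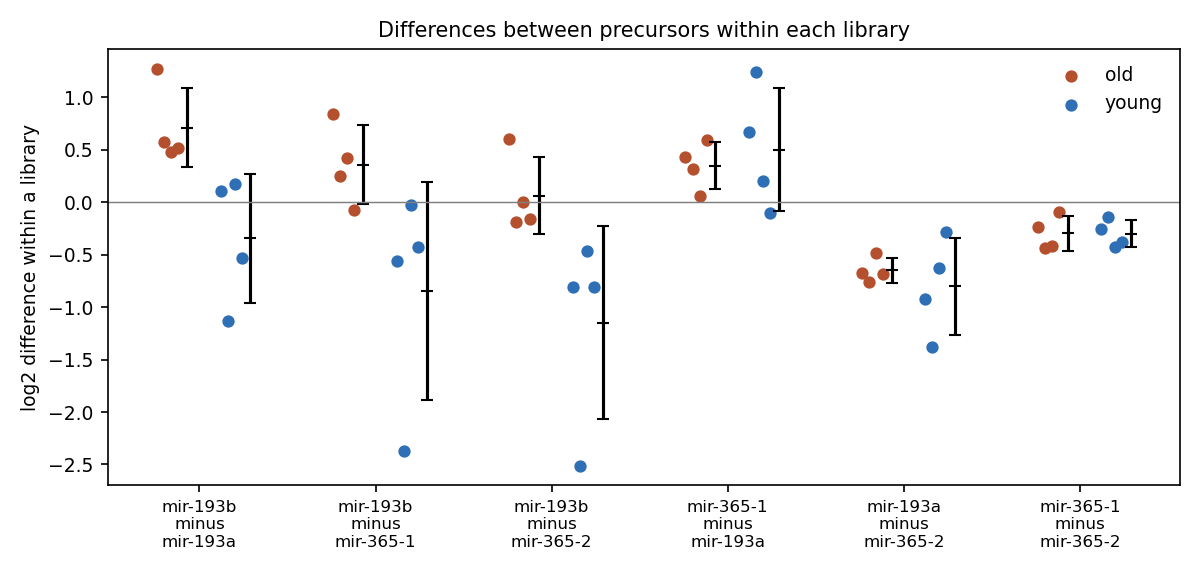
Log2 difference between each pair of precursors within a library (vertical axis) in 4 old (brown) and 4 young (blue) libraries, with the mean and SD beside each group. mir-193b minus mir-193a and mir-193b minus mir-365-2 separate the groups, while mir-365-1 minus mir-365-2 stays between -0.44 and -0.09 in all 8 libraries.

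The order of mean levels over the 8 libraries, on the deposited scale, was mir-365-2 at 8.84 ± 0.37, mir-365-1 at 8.54 ± 0.42, mir-193b at 8.30 ± 0.87 and mir-193a at 8.12 ± 0.54 (SD, n = 8). This pooled order held in neither group. mir-193b had the highest mean of the 4 in old libraries, at 8.82, and the lowest in young ones, at 7.78. All 4 lay between rank 125 and rank 218 of 1181 in every library, of which 588 to 635 precursors were above 0. mir-365-2 exceeded mir-365-1 in 8 of 8 libraries, by 0.09 to 0.44. Over old and young libraries together, mir-365-1 and mir-193b, the next neighbours in the order, did not differ beyond their spread (mean difference of mir-193b minus mir-365-1 -0.24 ± 0.97). Neither did mir-193b and mir-193a (0.18 ± 0.73, SD, n = 8 each). These spreads include the difference between the groups. mir-193b minus mir-193a was 0.48 to 1.27 in old and -1.13 to 0.17 in young libraries.

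The mir-365-1 hairpin has 87 bases and mir-365-2 has 112, so that the same reads listed under both would, if values are per length, place mir-365-1 above mir-365-2 by 0.36 (log2). mir-365-1 was lower in all 8 libraries, and the ratio of reads recovered under that reading, mir-365-1 to mir-365-2, was 0.57 to 0.73. The share of the reads of both hairpins listed under mir-365-1 was 38.8 ± 2.7% for the old mice and 38.7 ± 2.2% for the young (SD, n = 4), a far narrower range than the 35.4% to 74.3% of mir-193b among the miR-193 reads. Since miR-365-3p matches both hairpins, the part that the placing of shared reads has in this evenness was not tested.

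Precursors that share a primary transcript are often expected to vary together, and the 6 pairs among the 4 precursors were compared across the 8 libraries with exact two-sided permutation tests over pairings, adjusted by Benjamini-Hochberg over the 6 pairs. mir-365-1 and mir-365-2, which share the miR-365-3p sequence but no locus, had a Pearson r of 0.94 (exact permutation p = 0.000124, adjusted 0.000744) and a Spearman rho of 0.98 (exact permutation p = 0.000397, adjusted 0.00238; n = 8). Without young 4 and old 4, the libraries farthest from the median, r was 0.91, and its adjusted exact permutation p over the 6 libraries left was 0.108. After median-ratio rescaling r was 0.85. With the deposited values each was the other's closest match among the 358 other kept precursors, but mir-196b and mir-191 also had an r of 0.94 with mir-365-1. On the rescaled values mir-191 had an r of 0.90 with mir-365-1, above that of mir-365-2. Since miR-365-3p matches both hairpins, the values cannot be taken as independent measurements; the part of shared reads in this relation was not tested.

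For the chromosome 16 neighbours mir-193b and mir-365-1 no relation was detected. Their r was -0.01 (exact permutation p = 0.985, adjusted 0.985) and their rho 0.12 (exact permutation p = 0.793, adjusted 0.793; n = 8). Without young 2 and young 1, the libraries farthest from the median of mir-193b, r was 0.50. After median-ratio rescaling it was -0.16, and without both libraries numbered 4 it was -0.56. By correlation with mir-193b, mir-365-1 ranked 199th of 358 precursors. Since part of the reads under mir-365-1 can come from chromosome 11, its value is not a clean measure of the chromosome 16 transcript.

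The chromosome 11 neighbours mir-193a and mir-365-2 had an r of 0.80 (exact permutation p = 0.0239, adjusted 0.0717) and a rho of 0.55 (exact permutation p = 0.171, adjusted 0.342; n = 8), which did not pass after adjustment. Without young 4 and old 3 r was 0.48, after median-ratio rescaling it was 0.41, and without both libraries numbered 4 it was -0.019. Without young 4 alone it was 0.40 and without old 4 alone 0.79, while without young 2 it was 0.94 (adjusted exact permutation p = 0.0163). On deviations from the group means it was 0.82 (adjusted permutation p = 0.0304). The relation thus depended on single libraries, young 4 among them. mir-365-1 and mir-193a gave an r of 0.64 (exact permutation p = 0.0743, adjusted 0.149) and a rho of 0.43 (exact permutation p = 0.299, adjusted 0.449), and r was -0.37 without young 4 and old 4 and 0.08 after median-ratio rescaling. mir-193b and mir-193a, which share the seed but no locus, had an r of 0.55 (exact permutation p = 0.156, adjusted 0.234) and a rho of 0.69 (exact permutation p = 0.0694, adjusted 0.208), with an r of 0.23 without young 2 and young 1 and of 0.61 after rescaling. For mir-193b and mir-365-2, r was 0.09 (exact permutation p = 0.810, adjusted 0.972) and rho 0.24 (exact permutation p = 0.582, adjusted 0.699), with an r of 0.35 without the same 2 libraries and of 0.01 after rescaling.

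**Figure D4:**
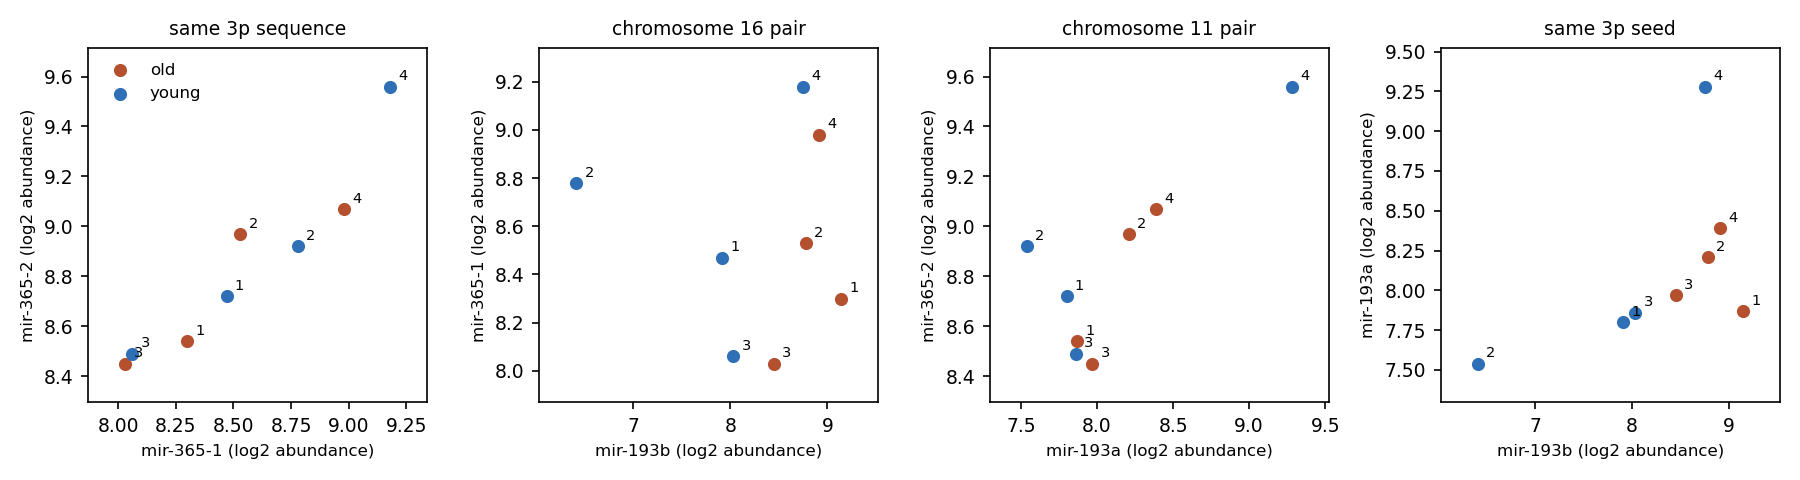
Log2 abundance of precursor pairs in 4 old (brown) and 4 young (blue) libraries, numbered as in the labels: mir-365-1 and mir-365-2 (same 3p sequence), the chromosome 16 and chromosome 11 neighbours, and the miR-193 hairpins (same 3p seed). The first pair follows a line (r = 0.94), and in the chromosome 16 pair young 2 combines the lowest mir-193b with a mir-365-1 of 8.78.

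The precursors differed in how much they varied among animals. The SD within groups was 0.72 for mir-193b, 0.58 for mir-193a, 0.44 for mir-365-1 and 0.39 for mir-365-2, against a median of 0.67 over the 359 kept precursors. In the same order, the SD was 0.29, 0.23, 0.40 and 0.31 in old libraries alone. In young libraries alone it was 0.98, 0.79, 0.47 and 0.46, so the wider spread of the miR-193 hairpins came from the young libraries. A single library stood apart for each. For mir-193b young 2 was at 6.41 and the other young libraries at 7.91 to 8.75. For mir-193a young 4 was at 9.28 and the other young libraries at 7.54 to 7.86. By the SD over both groups the miR-365 hairpins were among the steadier ones, with 13.9% of precursors below mir-365-1 and 7.0% below mir-365-2. After median-ratio rescaling the SD of mir-365-2 was 0.22 and that of mir-193b 0.74, against a median of 0.54.

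Outside the 4 themselves, the precursors whose values ran most like each across the 8 libraries, by Pearson correlation, differed: the 3 for mir-193b were on no other list, while the other lists shared members. For mir-193b they were let-7k (r = 0.91), mir-7658 (0.88) and mir-669a-5 (0.84), all of low abundance with mean log2 values of 3.23, 3.45 and 2.97; mir-669a-5 belongs to a family of near-identical copies, so its own level is uncertain. For mir-365-1 they were mir-196b (0.94), mir-191 (0.94) and mir-125b-2 (0.92), with means of 11.59, 18.06 and 16.36. mir-365-2 was most like mir-7a-1 (0.92), mir-125b-2 (0.91) and mir-129b (0.91), and mir-193a most like mir-7a-1 (0.92), mir-1249 (0.91) and mir-20a (0.91). Of these, mir-125b-2 and mir-7a-1 also have a listed copy each, mir-125b-1 and mir-7a-2, so their own levels are uncertain too. mir-129b and mir-129-2 had nearly the same old minus young (log2), 0.195 and 0.1925, and whether they share reads was not tested. After median-ratio rescaling the r values were 0.82 to 0.91 for the 3 of mir-193b, 0.70 to 0.90 for those of mir-365-1, 0.49 to 0.55 for those of mir-365-2 and 0.77 to 0.88 for those of mir-193a. With the deposited values, an r over 0.5 was found with 46.8% to 51.8% of the other kept precursors for mir-365-1, mir-365-2 and mir-193a, but with 11.5% for mir-193b. These values share libraries and their composition and are a description only.

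Other microRNAs linked to brown fat formation or muscle differentiation were compared from a list. Of 25 listed precursors 23 were kept, and 0 passed in limma. Of these, 11 had a higher and 12 a lower mean in old libraries, against 165 and 194 of all 359; their median difference was -0.003, beside -0.053 for all 359. mir-378a, which lies in Ppargc1b and is linked to brown fat mass and to myoblast differentiation, was the most abundant, at 16.99 ± 0.34 in old and 17.14 ± 0.13 in young myoblasts. mir-27b, an inhibitor of fat cell formation that also targets Pax3, measured 16.20 ± 0.52 and 16.18 ± 0.33, and mir-206, the muscle-specific microRNA of myoblasts, 15.90 ± 0.17 and 15.72 ± 0.72. mir-182 measured 14.91 ± 1.12 and 15.38 ± 1.47 (SD, n = 4 each throughout). mir-455, which like the mir-193b cluster is reported to act on Runx1t1 in brown fat precursors, measured 8.97 ± 1.30 and 9.23 ± 1.35. mir-133a-1, which targets Prdm16, the switch gene of the brown fat and muscle choice, measured 13.34 ± 0.65 and 13.57 ± 1.25; mir-455 and mir-133a-1 were singled out here for those roles, with their values known. Among these 6 precursors the mean difference largest in size was -0.47 for mir-182, with an SE of 0.77.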

How the data were processed

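The authors deposited normalized log2 values with 2 decimals, floored at 0, for 1181 precursors in 8 libraries. The submitters' processing notes name BWA and mm10; how reads were trimmed, counted and scaled is not given in the sources used here. Low values times precursor length fell on whole multiples of a step in 99.1% to 100% of cases (up to 12 reads, tolerance 0.1 of a read), as RPKM would; recovered reads rest on that reading, and counting error is not the spread between animals. The members, lists and tests were chosen with earlier results of these data known.

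limma 3.58.1 (R 4.3.3, eBayes with trend) was run on the deposited values of 359 precursors (10 or more on the linear scale in 4 or more libraries), old minus young, and p-values were adjusted by Benjamini-Hochberg over all 359. The scripts were tested on simulated data. Relations were tested by enumerating all pairings. Named precursors were the 4 members, the 3 most correlated with each, and the 4 most abundant of the brown fat and muscle list. From that list mir-455 and mir-133a-1 were added for their roles, with their values known. Marker precursors, mir-486 and mir-3107 were named to describe the libraries. Whether the mice were littermates or processed together is not given. Other steps ran in Python 3.11.15 with scipy 1.17.1, numpy 2.4.6 and pandas 2.3.3, and figures were drawn with matplotlib 3.10.9. Alternatives were other pseudocounts, filters and scalings, no trend, a replicate block and leaving out each library.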

Additional observations from a re-analysis of the deposited data

How the results depend on the processing

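The count of precursors passing in limma was 0 under all 17 alternatives, with 0 to 39 at an unadjusted p under 0.05. The difference of mir-193b stayed positive under all 17 (0.59 to 1.37 with 1 library left out, adjusted p = 0.349 to 1.0 over all alternatives in limma). The small differences of the others changed sign. With quantile normalization they were 0.019 for mir-365-1, 0.074 for mir-365-2 and 0.25 for mir-193a, and with median-ratio rescaling 0.027 for mir-193a. With 1 library left out they ranged from -0.35 to 0.023 for mir-365-1 (positive without young 4), from -0.31 to 0.047 for mir-365-2 (positive without young 4) and from -0.20 to 0.38 for mir-193a (0.070 without old 1, 0.037 without old 3 and 0.38 without young 4).

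Among the relations, that of mir-193b and mir-365-1 had an r of 0.24 with quantile normalization, 0.17 on deviations from group means and -0.18 to 0.41 with 1 library left out (0.092 without old 1, 0.030 without old 3, 0.41 without young 2). That of mir-193b and mir-365-2 ranged from -0.12 (without young 4) to 0.34, that of mir-365-1 and mir-193a from 0.26 to 0.85 (adjusted exact permutation p = 0.0163 without young 2), and that of mir-365-2 and mir-193a from 0.40 to 0.94 (adjusted exact permutation p = 0.0163 without young 2). On deviations from group means the last was 0.82 (adjusted permutation p = 0.0304). Without both libraries numbered 4, chosen after seeing the data, the mir-193a difference was 0.28, and r was -0.56 for mir-193b and mir-365-1, -0.40 for mir-193b and mir-365-2, -0.37 for mir-365-1 and mir-193a, -0.019 for mir-365-2 and mir-193a, and 0.91 for mir-365-1 and mir-365-2 (adjusted exact permutation p = 0.108, with 6 libraries). The causes were not tested. The median of the brown fat and muscle list was -0.15 to 0.18 over its 17 alternatives.

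The labels number old and young mice alike, but same-numbered libraries did not all deviate together (correlations -0.06, 0.43, 0.66 and 0.58 for numbers 1 to 4; the same-numbered young library was the best match for old 2, old 3 and old 4 but not old 1). The labels state no shared litter or day, so the numbers were not taken as pairs, and the permutation tests treat the 8 libraries as independent. With the number as a replicate block the mir-193b difference was 1.04 (limma adjusted p = 0.349), 0 precursors passed and 39 had an unadjusted p under 0.05, against 4 without the block. Each of the 4 precursors had 216 recovered reads or more in every library.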
